A study of Danio rerio with 4 samples.

Results

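The CCAAT/enhancer-binding proteins (C/EBPs) examined here were the 4 zebrafish genes annotated as cebpa, cebpb, cebpd and cebpg in the probe-to-gene table of the array platform. Each was measured by 2 probes, so that 8 of 43603 probes and 4 of 15554 named genes were followed. Total RNA of zebrafish liver was compared on 4 two-colour oligonucleotide arrays. The control group comprised 2 RNAs without cadmium (replicates 2 and 3). The cadmium group comprised 2 RNAs at 5 µM cadmium (replicates 1 and 2), and all were taken at day 4. The labels give neither strain, sex nor age of the fish, nor whether an RNA came from a single fish or a pool. The dose is that of the design text; the channel labels write degrees C after the same number. In the loop of arrays, array 1 carried control replicate 2 in Cy5 and cadmium replicate 1 in Cy3, array 2 cadmium replicate 1 and control replicate 3, array 3 control replicate 3 and cadmium replicate 2, and array 4 cadmium replicate 2 and control replicate 2.

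C/EBPs are transcription factors of the basic leucine zipper class. They bind DNA as homodimers or as heterodimers with each other and with related factors. In mammals, C/EBP alpha maintains hepatocyte differentiation and the expression of metabolic genes in liver, whereas C/EBP beta and C/EBP delta are induced by cytokines such as interleukin 6 and drive acute-phase genes. C/EBP gamma, which lacks the activation domains of its relatives, acts mainly through heterodimers, among them those with ATF4.

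Transcripts of cebpb and cebpd had lower values in both cadmium RNAs than in both control RNAs, as had 10.2% of all genes. Their log2 differences were -0.66 ± 0.15 and -0.68 ± 0.14 (moderated SE, 2 RNAs per group), while cebpa and cebpg gave no common direction. The direction of each sign rests on reading the deposited log ratio as Cy5 over Cy3. This reading is likely, given that titles list the Cy5 RNA before the Cy3 RNA and that limma, named by the submitters, forms ratios that way; under the opposite reading every sign below would turn. None of the 4 genes or 8 probes passed limma's test after Benjamini-Hochberg adjustment over all features (adjusted p = 0.9998 for each gene and 0.99996 for each probe). The same test called 0 of 15554 genes and 0 of 43603 probes (0%), against 314 genes and 662 probes at an unadjusted p under 0.05. In whole liver RNA, fewer cells of a type and less RNA per cell cannot be told apart.

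**Figure D1:**
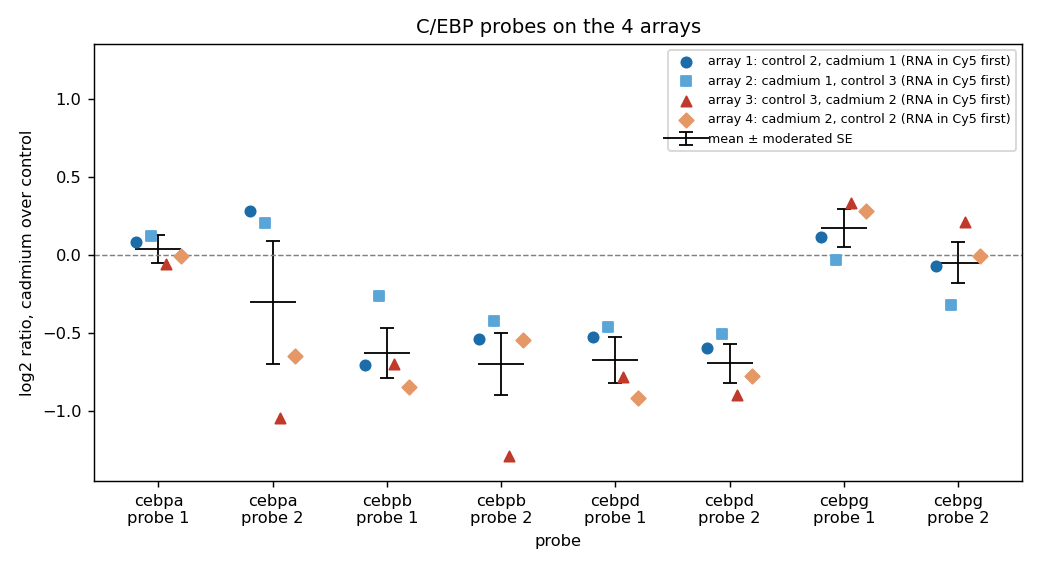
Log2 ratio of cadmium over control for each of the 8 C/EBP probes (x axis) on each of the 4 arrays (symbols), with the mean of the 4 arrays and its moderated SE (black bars). The 16 values of the cebpb and cebpd probes lie below 0, whereas those of cebpa and cebpg lie on both sides.

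The gene cebpb (Entrez Gene 140814) encodes the factor that in mammals couples cytokine signals to acute-phase and gluconeogenic genes. For its probe 1 (A_15_P113920) the log2 ratio of cadmium over control was -0.70, -0.27, -0.70 and -0.85 on arrays 1 to 4. For its probe 2 (A_15_P484755) it was -0.54, -0.42, -1.29 and -0.55. Both probes were thus below 0 on every array, with the value nearest to 0 on array 2 in each case. The log2 differences of the probes were -0.63 ± 0.16 and -0.70 ± 0.20, and their gap of 0.072 was larger than that of 41.4% of the 4515 genes with 2 probes, of which the median gap was 0.090. Averaged over its probes cebpb was at -0.66, a linear ratio of 0.631 with an unadjusted 95% interval of 0.470 to 0.847. The dye effect solved for probe 2 (0.21 on the log2 scale, Cy5 over Cy3) was larger in size than that of 96.9% of all probes, and it was balanced between the groups by the loop.

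The gene cebpd (Entrez Gene 140817) encodes C/EBP delta, which in mammals is transcribed rapidly after interleukin 6 or glucocorticoid. The log2 ratio of its probe 1 (A_15_P160661) was -0.53, -0.46, -0.79 and -0.92 on arrays 1 to 4. That of its probe 2 (A_15_P577552) was -0.60, -0.51, -0.90 and -0.78. The probes of cebpd differed by 0.021 in their log2 difference, a gap larger than that of 13.6% of the genes with 2 probes. Both gave a weaker ratio on the arrays with cadmium replicate 1 than on those with cadmium replicate 2. The gene value of -0.68 corresponded to a linear ratio of 0.622, with an unadjusted 95% interval of 0.474 to 0.817. Among all genes, 0.534% had a lower log2 difference than cebpd and 0.604% a lower one than cebpb.

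The gene cebpa (Entrez Gene 140815) encodes C/EBP alpha, the family member associated with the differentiated hepatocyte. Its probe 1 (A_15_P108996) stayed near 0, at 0.084, 0.12, -0.056 and -0.0073 on arrays 1 to 4. Its probe 2 (A_15_P141931) was at 0.28 and 0.20 on arrays 1 and 2 and at -1.05 and -0.65 on arrays 3 and 4. The sign of both probes therefore followed the cadmium RNA on the array, higher with cadmium replicate 1 and lower with cadmium replicate 2, but at very different sizes. Their log2 differences of 0.036 ± 0.091 and -0.30 ± 0.39 lay 0.34 apart, a larger gap than in 93.8% of the genes with 2 probes. Both probes are assigned to the same transcript record in the platform table, and nothing in the files says which part of the transcript each one covers. The gene value of -0.13 ± 0.24 had an unadjusted 95% interval for the linear ratio of 0.575 to 1.44. It changed with single RNAs, to -0.44 without cadmium replicate 1, to 0.17 without cadmium replicate 2 and to -0.073 without control replicate 3.

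The gene cebpg (Entrez Gene 140816) encodes C/EBP gamma, the heterodimer partner. Its probe 1 (A_15_P101177) was at 0.12, -0.035, 0.33 and 0.28 on arrays 1 to 4, and its probe 2 (A_15_P174101) at -0.072, -0.32, 0.21 and -0.0086. The probes lay on the same side of 0 on 2 of the 4 arrays, and their log2 differences were 0.17 ± 0.12 and -0.049 ± 0.13. For probe 1, both cadmium RNAs were above both control RNAs, as for 10.3% of all probes. The gene value of 0.062 ± 0.13 gave a linear ratio of 1.04 with an unadjusted 95% interval of 0.812 to 1.34, and it was at -0.079 without cadmium replicate 2 and at 0.20 without cadmium replicate 1.

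Counted over the 8 probes, 4 were lower on all 4 arrays, the probes of cebpb and cebpd, where 6.82% of all probes were. The same 4 probes had both cadmium RNAs below both control RNAs (10.6% of all probes), a log2 difference at or below -0.5 (1.11%) and an unadjusted p under 0.05 with a lower value (0.748%), the p lying between 0.00455 and 0.0235. Of the 4 genes, cebpb and cebpd were lower on all 4 arrays, against 6.9% of all genes, and both had non-overlapping groups, against 10.2%. The unadjusted p of cebpb was 0.0125 and that of cebpd 0.00867 in limma; 0.945% of all genes had an unadjusted p under 0.05 on the lower side. These shares describe the members and are no test, since the genes were chosen with earlier results of these data known. Arrays 1 and 3 share no RNA, and their ratios had a Pearson correlation of -0.0427 across the array. For arrays 2 and 4, which also share no RNA, it was -0.221. With 2 RNAs against 2, the exact two-sided permutation test over RNAs gave p = 0.333 for cebpb and for cebpd, the smallest value that the 6 labelings allow, and p = 1 for cebpa and cebpg.

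**Figure D2:**
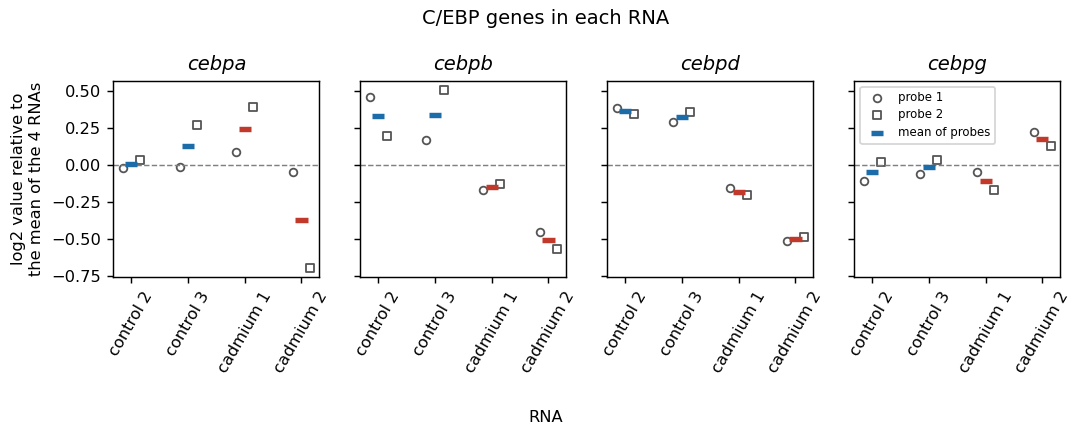
Log2 value of each C/EBP gene in each of the 4 RNAs (x axis) relative to their mean (y axis), solved from the loop; open symbols are the probes and bars their mean (blue, control; red, cadmium). In cebpb and cebpd both controls lie above 0 and both cadmium RNAs below, with cadmium replicate 2 the lowest.

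Solving the loop gave a value for each RNA relative to the mean of the 4. For cebpd these were 0.36 and 0.32 in control replicates 2 and 3, and -0.18 and -0.50 in cadmium replicates 1 and 2. For cebpb they were 0.33 and 0.34 in the controls and -0.15 and -0.51 in the cadmium RNAs. In both genes the controls lay close together, 0.042 and 0.00897 apart, whereas the cadmium RNAs differed by 0.32 and 0.36. Over all genes the median gap was 0.11 between the controls and 0.16 between the cadmium RNAs. Over all probes the ratios had an SD of 0.198 and 0.23 on arrays 1 and 2, which carried cadmium replicate 1. On arrays 3 and 4, which carried cadmium replicate 2, the SD was 0.388 and 0.353. The part of this wider spread in the gap between the cadmium RNAs was not tested. The near equality of the controls for cebpb hides opposite probe orders, since control replicate 2 was 0.29 above control replicate 3 on probe 1 and 0.31 below it on probe 2. For cebpa the order was cadmium replicate 1 (0.24), control replicate 3 (0.13), control replicate 2 (0.0062) and cadmium replicate 2 (-0.37). For cebpg cadmium replicate 2 was the highest (0.17) and cadmium replicate 1 the lowest (-0.11), with the controls between them at -0.013 and -0.048. Thus cadmium replicate 2 was the lowest RNA for 3 of the genes and the highest for cebpg.

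Against both controls, cebpb was at -0.48 in cadmium replicate 1 and at -0.84 in cadmium replicate 2, and cebpd at -0.52 and -0.84. With cadmium replicate 2 left out the adjusted p was 0.629 for cebpb and 0.567 for cebpd. With cadmium replicate 1 left out it was 0.0175 and 0.0177 in limma, in a fit that called 1456 genes (9.36%; 2.48% lower) and in which the lone cadmium RNA was assumed to vary like the controls. Without either control, cebpb stayed between -0.67 and -0.66 and cebpd between -0.71 and -0.66.

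**Figure D3:**
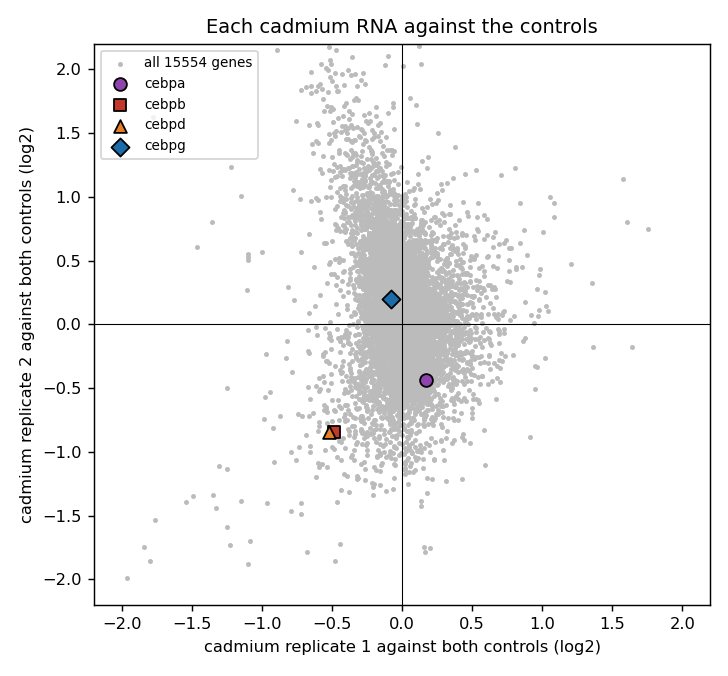
Log2 value against both controls in cadmium replicate 1 (x axis) and in cadmium replicate 2 (y axis) for all 15554 genes (grey) and the 4 C/EBP genes; 17 genes lie outside the axes, which end at 2.2. The points of cebpb and cebpd coincide nearly, below 0 on both axes, while cebpa is above 0 for replicate 1 and below it for replicate 2, and cebpg the reverse.

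Differences between family members were read within arrays, since levels of different probes cannot be compared. Over the 6 pairs of genes, cebpb lay below cebpa on all 4 arrays, by 0.80, 0.51, 0.44 and 0.37 on arrays 1 to 4. The gene cebpd lay below cebpa by 0.75, 0.65, 0.29 and 0.52. Relative to cebpg, cebpb was at -0.64, -0.17, -1.26 and -0.83 and cebpd at -0.59, -0.31, -1.11 and -0.98. In these 4 pairs the cadmium and control RNAs did not overlap, and each exact permutation p was 0.333, the smallest possible. Adjustment over the 6 pairs cannot lower it. The share of all pairs of genes without overlap was not computed. These 4 pairs are not separate results, since cebpb and cebpd had nearly the same value in each RNA. Between cebpb and cebpd the array gaps were -0.060, 0.14, -0.15 and 0.15, on both sides of 0 (exact permutation p = 0.667). Between cebpa and cebpg they were 0.16, 0.34, -0.82 and -0.46 (exact permutation p = 1).

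The likeness of patterns was measured as the Euclidean distance over the 4 RNA values, with clone names left out. By this measure cebpd was the nearest of all named genes to cebpb, and cebpb the nearest to cebpd (distance 0.050). The next nearest to cebpb were pcbp4 (0.093), cyp2k18 (0.099) and ilvbl (0.10), with log2 differences of -0.66, -0.69 and -0.58. Of these, the probes of pcbp4 were at -1.19 and -0.12 and those of cyp2k18 at -1.37 and -0.014, and without cadmium replicate 2 pcbp4 was at -0.42 and ilvbl at -0.36. The next nearest to cebpd were c4b (0.068), inhbab (0.094) and hacl1 (0.11), at -0.72, -0.70 and -0.58. They encode a complement component, an activin subunit and an enzyme of peroxisomal fatty acid oxidation. The 3 probes of c4b ran from -0.98 to -0.56, while inhbab and hacl1 had 1 probe each. With 1 RNA left out, c4b ran from -0.84 to -0.60, inhbab from -0.80 to -0.59 and hacl1 from -0.76 to -0.41. The genes nearest to cebpa were bnip3, slc30a4, ldlrad3 and hsd17b14 (distances 0.033 to 0.046), and all 4 moved from values between -0.14 and -0.10 to values between 0.16 and 0.22 without cadmium replicate 2. Those nearest to cebpg were prkaa1, dnal1, dgke and epb41l3a (0.0066 to 0.012), at 0.053 to 0.068, and at -0.086 to -0.074 without that RNA. Small distances are easily reached near 0, where most genes lie, and 4 RNAs carry 3 independent values.

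Other basic leucine zipper factors that dimerise with C/EBPs or bind like sequences lay on both sides of 0. Of the 18 measured genes, 11 were lower and 7 higher, with a median of -0.040 against 0.017 over all 15554 genes, of which 43.1% were lower, and 0 passed the test (4 at an unadjusted p under 0.05; 2.02% of all genes). The largest moderated t belonged to tefa, a proline- and acid-rich factor of the clock output (1.02 ± 0.10, probes 0.77 to 1.44), and nfil3-5, a repressor at like sequences (-1.39 ± 0.41). They were followed by atf4b (-0.40 ± 0.14), a gene for the ATF4 partner of C/EBP gamma in the amino acid response, and the stress factor atf3 (-0.55 ± 0.19). The other ATF4 gene, atf4a, was at 0.17 ± 0.33, with -0.61, 0.052, 0.35 and 0.90 on arrays 1 to 4. The C/EBP homologous protein gene ddit3, an inhibitory partner induced by endoplasmic reticulum stress, was at -0.45 ± 0.17. Without control replicate 2, 9 of the 18 were lower (median 0.0013), nfil3-5 was at -0.82 and atf3 at -0.32. Without cadmium replicate 2, 14 were lower (median -0.056) and ddit3 was at -0.25.

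The list of inputs to C/EBP transcription also held the feedback inhibitor genes socs3a and socs3b. Its entries il6, il6r, il6st, tyk2 and prkaca were not matched. Among the measured genes of this list, 13 of 20 were lower and 7 higher (43.1% of all genes were lower). Their median was -0.080 and 0 passed the test, with 2 at an unadjusted p under 0.05 (2.02% of all genes). On all 4 arrays 7 of the 20 were lower, against 6.9% of all genes. They were led by socs3a, the feedback inhibitor of interleukin 6 signalling (-1.06 ± 0.28), and the kinase gene jak2a (-0.44 ± 0.15, against 0.075 ± 0.095 for its paralogue jak2b). With 1 RNA left out socs3a, measured by 1 probe, ran from -1.40 to -0.72. Next came socs3b (-0.38 ± 0.17) and creb1b (-0.42 ± 0.19), which encodes a cAMP-responsive factor. The interleukin 6 effector gene stat3 was at -0.12 ± 0.12 (4 probes, -0.38 to 0.031). The glucocorticoid receptor gene nr3c1 was at -0.17 ± 0.10 (3 probes, -0.29 to 0.0012). Without cadmium replicate 2, jak2a was at -0.28 and the median of the 20 genes at -0.035; with 1 RNA left out stat3 ran from -0.21 to -0.026; without cadmium replicate 1, socs3b was at -0.21; creb1b was at -0.20 without control replicate 3 and at -0.64 without control replicate 2. Without control replicate 3, 17 of the 20 were lower, and in the other 3 cases 12 to 14. Of genes whose products modify or degrade C/EBP proteins, 12 of 15 were higher, where 8854 of all 15554 genes were. Their median was 0.042, with 0 passing and 0 at an unadjusted p under 0.05, but only 4 of 15 were higher without cadmium replicate 2. They were led by rps6ka3a (0.22 ± 0.14), sumo3b (0.46 ± 0.46), mapk3 (0.19 ± 0.19) and rps6ka2 (-0.066 ± 0.081), and trib3, a pseudokinase gene, was at 0.068 ± 0.28. Without cadmium replicate 2, rps6ka3a was at 0.091, sumo3b at -0.16, mapk3 at -0.041 and trib3 at -0.28.

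**Figure D4:**
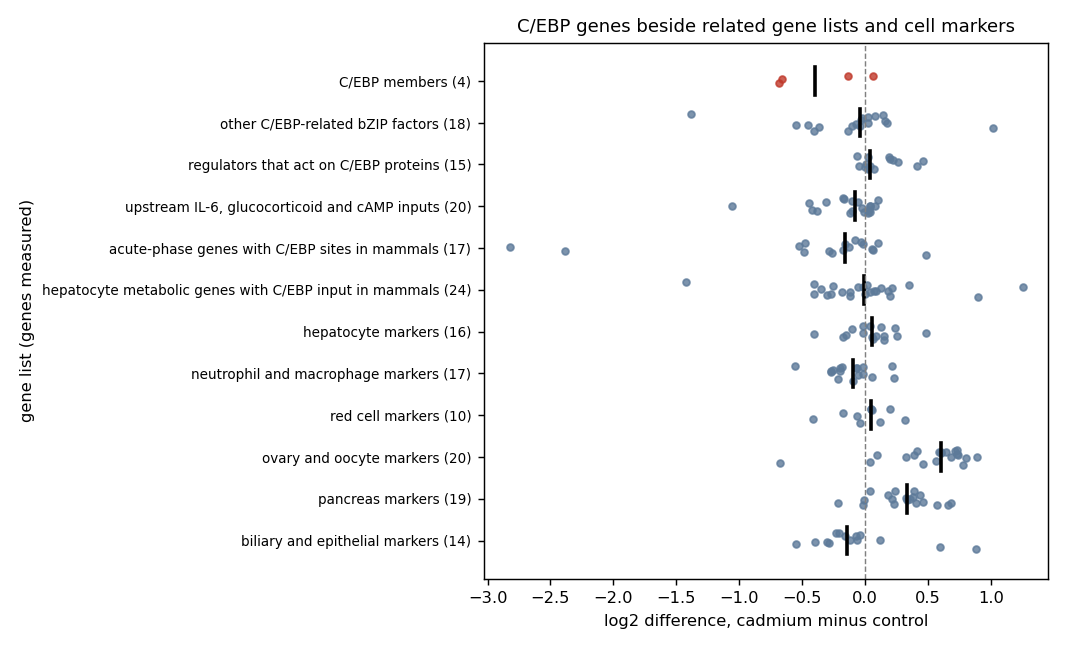
Log2 difference of cadmium minus control (x axis) for each measured gene of the C/EBP group (red) and of the related and marker lists (blue; rows, with the number of genes measured), black bars marking list medians. The C/EBP genes lie between -0.68 and 0.062, and the marker lists of ovary and pancreas have medians of 0.60 and 0.34.

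Genes listed as having C/EBP sites or C/EBP input in mammals were described from 2 lists. Of 17 acute-phase genes 13 were lower and 4 higher (43.1% of all genes were lower). Their median was -0.16 and 0 passed the test, with 3 at an unadjusted p under 0.05 (2.02% of all genes). On all 4 arrays 5 of the 17 were lower, against 6.9% of all genes. They were led by the hepcidin gene hamp (-2.82 ± 0.23), the hemopexin gene hpxa on the higher side (0.48 ± 0.14, 6 probes) and the complement genes c3a.2 (-0.29 ± 0.10) and c3a.1 (-0.49 ± 0.18, at -0.25 without control replicate 3). The count depended on control replicate 3, since without it 8 of 17 were lower (median 0.0034), and without cadmium replicate 2 it was 10 (median -0.048). The genes listed as hepatocyte metabolic, with ucp1 among them, were divided evenly, with 12 of 24 higher and 12 lower (median -0.0083). Of them 0 passed the test and 4 were at an unadjusted p under 0.05 (2.02% of all genes). Here tdo2b of tryptophan breakdown was at 0.90 ± 0.12, whereas its paralogue tdo2a was at -0.27 ± 0.21. An insulin-like growth factor binding protein gene, igfbp1a, was at -1.42 ± 0.25. The acetyl-CoA carboxylase gene acaca was at 1.25 ± 0.38 (0.75 without cadmium replicate 1) and the tyrosine aminotransferase gene tat at -0.26 ± 0.08. Without control replicate 2 or without cadmium replicate 1, 17 of the 24 were lower.

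Markers of cell types that a liver sample can hold varied beside these values. C/EBP genes are also active in myeloid cells, and 14 of 17 neutrophil and macrophage markers were lower, against 43.1% of all genes (0 passing, 0 at an unadjusted p under 0.05). Their median was -0.10, between -0.22 and 0.047 on single arrays, and per RNA it was 0.093 and 0.040 in the controls and 0.0051 and -0.099 in the cadmium RNAs. Without cadmium replicate 2, 10 of the 17 were lower and the median was -0.021. Of all 15554 genes 8854 were higher. The hepatocyte markers are no separate set, since fga, fgb, fgg, cp and hpxa were also among the acute-phase genes. Likewise, ttr, apoa1a and apobb.1 were also among the hepatocyte metabolic genes. Hepatocyte markers were higher in 10 of 16 cases (median 0.058), red cell markers in 6 of 10 (median 0.047) and biliary and epithelial markers in 3 of 14 (median -0.14). These counts changed with single RNAs: 6 of 16 hepatocyte markers were higher without cadmium replicate 1 (median -0.036), 3 of 10 red cell markers without control replicate 3 or cadmium replicate 1 (median -0.10 in both cases) and 6 of 14 biliary and epithelial markers without control replicate 2 (median -0.045). Ovary and oocyte markers stood at a median of 1.40 in cadmium replicate 2 and -0.76 in cadmium replicate 1. In the controls the median was -0.42 and -0.16, so that cadmium replicate 2 stood apart from the other RNAs. Of these markers 19 of 20 were higher, but only 1 of 20 without cadmium replicate 2. Pancreas markers stood at 0.73 in control replicate 2 and -0.92 in control replicate 3. Of these markers 16 of 19 were higher, but only 1 of 19 without control replicate 3. The values of cebpb and cebpd without cadmium replicate 2 (-0.48 and -0.52) and without either control are those given above; the part of other cell types in their difference was not tested. As ratios hold no signal level, the presence of hepatocyte transcripts as such could not be checked.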

How the data were processed

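The authors deposited 1 log2 ratio of the dyes per probe and array; per the labels, Trizol RNA was labelled by Agilent's two-colour protocol, and the submitters' processing notes name limma. Background correction, normalization, filters and log base are not stated in the labels or files at hand. Base 2 was assumed, and the largest value of 6.14 does not settle the base. Column medians lay between -0.000451 and 0.00373, so the ratios appear centred, by an unknown method; the direction was taken as Cy5 over Cy3.

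Each probe's 4 ratios were solved for 3 differences between RNAs and 1 dye effect. Cadmium and control RNAs were compared, 2 against 2, with lmFit and eBayes (limma 3.58.1, R 4.3.3). Tests were two-sided, and p-values were adjusted by Benjamini-Hochberg over all 43603 probes or 15554 genes with a threshold of 0.05. Residual degrees of freedom were 2, and the prior's were 2.17 (probes) and 1.91 (genes). A gene was the mean over its probes. Array noise weighs more on differences within a group of this loop than between groups, so calls may be too few. The labels do not tie an RNA to separate fish, so p-values cover the spread among the RNAs at hand, and the number of arrays limits the precision. Of the probes, 23717 carried 1 symbol, 0 several and 19886 are unnamed here; the gene IDs of 23534 probes were in the RefSeq table, and older list symbols were matched through its synonyms.

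The members, the 11 other lists and the rules were chosen with earlier results of these data known. Named were all member probes, the 4 nearest genes per member, the 4 genes of largest moderated t in each list, and a fixed set (stat3, socs3a, nr3c1, ddit3, trib3, hamp and igfbp1a, with il6 and trib1 not matched); marker lists are given as counts and medians. Alternatives changed the unit of the test, the scaling and centring of arrays, the filter, the variance prior and the probe summary, and left out each RNA. The paralogues atf4a, jak2b and tdo2a were named in addition, outside these rules. No sequence was used here.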

Additional observations from a re-analysis of the deposited data

How the results depend on the processing

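Under 12 alternatives the log2 differences of cebpb and cebpd kept their sign, with ranges of -0.84 to -0.48 and -0.84 to -0.52 when 1 RNA was left out and of -0.73 to -0.64 and -0.75 to -0.68 otherwise. Both passed the threshold only without cadmium replicate 1 (adjusted p 0.0175 and 0.0177; limma), as did probe 2 of cebpb (range over left-out RNAs -0.92 to -0.48), probes 1 (-0.85 to -0.49) and 2 (-0.84 to -0.55) of cebpd and probe 2 of cebpa (-0.85 to 0.24). Leaving out 1 RNA turned cebpa (-0.44 to 0.17), its probe 1 (-0.032 to 0.10) and probe 2, cebpg (-0.079 to 0.20) and its probe 2 (-0.20 to 0.10); the cause was not tested. Probe 1 of cebpa was removed by the variance filter. The counts of called probes and genes were 0 to 2523 and 0 to 1456 over the left-out RNAs, 3 and 2 with arrays as units and no dye term, and 2 genes without the 25% of lowest variance. Of 40 other genes taken singly through the alternatives, 11 turned in at least 1 alternative, added after seeing the data. The paralogues atf4a, jak2b and tdo2a, also named above, were not among the 40. Over left-out RNAs bnip3 ran from -0.41 to 0.16, slc30a4 from -0.47 to 0.19, ldlrad3 from -0.42 to 0.22, hsd17b14 from -0.45 to 0.17, prkaa1 from -0.074 to 0.20, dnal1 from -0.086 to 0.19, dgke from -0.079 to 0.22, epb41l3a from -0.076 to 0.21, sumo3b from -0.16 to 1.09, mapk3 from -0.041 to 0.42 and trib3 from -0.28 to 0.42. After quantile normalization dnal1 was at -0.0038 and trib3 at -0.066. No paired analysis was possible because the groups share only 1 replicate number, and the loop already sets each control against each cadmium RNA. No filter on dim probes was run, as the ratios carry no signal or background per spot.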

Other observations

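Besides the 4 members, 2 further genes with a C/EBP name were on the array, chosen after their values were seen. Of these, cebp1 was already counted above among the other basic leucine zipper factors. The gene cebp1, a C/EBP of the zebrafish myeloid lineage, was at -0.035 ± 0.081 on the log2 scale, with its probe at -0.057, 0.012, -0.088 and -0.0073 on arrays 1 to 4. The gene cebpz, which despite its name encodes no leucine zipper factor but a protein of ribosome assembly, was at 0.21 ± 0.16 (3 probes, 0.13 to 0.28), with 0.16, 0.0011, 0.70 and -0.019 on arrays 1 to 4 and a dye effect of -0.22. It was at 0.072 without control replicate 3, at 0.082 without cadmium replicate 2, at 0.35 without control replicate 2 and at 0.34 without cadmium replicate 1. Neither passed the test (adjusted p = 0.9998 for each; limma).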
